A study of Mus musculus with 12 samples.

Results

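The transcription factors described here are those that mark regions of the forebrain: the nuclei of the hypothalamus, the thalamus and habenula, the cortex, and the basal forebrain. They were named one by one from textbook patterns of expression, 38 genes in all, and were found by symbol in RNA-Seq tables of the hypothalamus. Of these, 36 had a row in at least 1 of the 2 tables, 35 had a row in each table and 34 had a row in both. *Rax*, a factor of tanycytes and the embryonic hypothalamus, and *Emx1*, a factor of cortical progenitors and pyramidal neurons, had no row in either table. *Neurod2* had no row on the chow diet and *Hmx2* none on the high-fat diet (HFD). The question is which regions the dissected tissue held on each diet, and whether the genotypes differed in that.

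The tissue came from 12 male mice on a C57BL/6J background, in 4 groups of 3. WT (+/+) and *Gpr75*-/- littermates were kept on chow, and other WT and *Gpr75*-/- mice were given the HFD for 2 weeks from 6 weeks of age, so that they were 8 weeks old. The *Gpr75*-/- allele is a CRISPR/Cas9 allele in every cell of the animal that ends translation shortly after the start, and *Gpr75* encodes an orphan G protein–coupled receptor. No group carried a further allele or agent.

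Each table holds 1 diet and gives 2 kinds of value. The first is the mean normalized count over the 6 mice of a diet. As a share of the sum over all genes, scaled to 1000000, it is given below as CPM, and divided by the length of the longest transcript of the gene as CPM per kb, the only scale on which genes are compared with each other. The second is 1 pooled level per genotype, given below as CPM or as its log2. Pooled levels deposited as 0 appear to stand for 1 CPM or less, and are called the 1 CPM floor. No value of a single mouse entered these results, so there is no replicate error and no test, and a difference between genotypes is a description of 2 pooled levels. The interval beside a difference is a 95% interval for counting error and for the rounding of the deposited values. It leaves out the variation between mice, and without molecular identifiers the reads are not independent molecules. A difference of at least 25%, or 0.32 on the log2 scale, is called past the fold.

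The tables hold 16855 genes on chow and 16744 on the HFD, and an average mouse had 18280462 and 19420111 normalized counts. Among genes with a mean of at least 100 normalized counts, 5% lay below -0.20 and 5% above 0.19 in the log2 difference between genotypes on chow, and below -0.17 and above 0.18 on the HFD, around a median of 0.00 on both diets. *Gpr75* itself was at 24.6 CPM in *Gpr75*-/- and 16.7 in WT mice on chow, and at 18.4 and 19.9 on the HFD. The allele can still be transcribed, so these levels do not check the genotype labels. For the label of the tissue, 19 of 20 genes for hypothalamic peptides and enzymes had a row in each table, *Kiss1* being the one without, and *Pmch*, the precursor of melanin-concentrating hormone, was at 251 and 265 CPM. Of 5 pituitary markers, *Gh*, *Prl* and *Pou1f1* had no row in either table, *Tshb* was at 2.01 and 1.82 CPM, and *Cga* at 0.839 CPM on the HFD only.

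As background, the vertebrate forebrain is divided during development by transcription factors, many of them of the homeodomain, basic helix-loop-helix, T-box and LIM-homeodomain families, each switched on in a stripe or patch of the neural tube. Many stay on in the mature neurons of that region and hold the identity of the cells, which is why they serve as a map of what a piece of brain contains. Within the hypothalamus, *Sim1* and *Otp* are needed for the neurons of the paraventricular nucleus, *Nr5a1* (SF-1) for the ventromedial nucleus, and *Nkx2-1* for the tuberal hypothalamus as a whole. *Tcf7l2* is a mark of the thalamus and habenula, and the *Dlx* genes of GABAergic neurons.

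Promoter sequence is shown for 3 members around which the genotype differences below turn: *Sim1* and *Otp*, both higher in *Gpr75*-/- mice on the HFD, and *Tbr1*, lower in them. The 250 bases before the start of each gene are taken from RefSeq windows on GRCm38.p6, an older build than that of the deposited coordinates. They are written 5′ to 3′ on the strand of the gene, which is the plus strand for each. Capitals mark matches to 2 motifs, which share no bases in these windows. CATCTG, searched on both strands, is an E-box of the kind that basic helix-loop-helix factors bind. TAATTA, a core bound by many homeodomain factors, reads the same on both strands.
*Sim1*, chr10:50895401-50895650: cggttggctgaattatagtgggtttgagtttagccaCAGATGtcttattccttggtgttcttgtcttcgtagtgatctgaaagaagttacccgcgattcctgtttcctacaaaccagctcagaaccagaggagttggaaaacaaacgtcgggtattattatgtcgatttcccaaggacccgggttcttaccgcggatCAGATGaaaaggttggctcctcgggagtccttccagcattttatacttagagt
*Otp*, chr13:94875386-94875635: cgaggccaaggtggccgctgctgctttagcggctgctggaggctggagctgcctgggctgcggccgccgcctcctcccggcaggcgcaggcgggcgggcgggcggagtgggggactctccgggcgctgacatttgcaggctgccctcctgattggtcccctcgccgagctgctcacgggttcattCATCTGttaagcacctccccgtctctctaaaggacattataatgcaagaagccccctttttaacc
*Tbr1*, chr2:61804203-61804452: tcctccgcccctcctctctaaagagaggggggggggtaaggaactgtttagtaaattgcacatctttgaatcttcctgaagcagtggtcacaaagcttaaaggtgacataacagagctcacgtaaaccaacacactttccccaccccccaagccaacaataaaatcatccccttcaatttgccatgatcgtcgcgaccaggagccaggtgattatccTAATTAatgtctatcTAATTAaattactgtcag

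*Sim1* held 2 matches to the E-box, which begin 214 and 53 bases before the start, and *Otp* held 1, which begins 65 bases before it. *Tbr1* held 2 matches to TAATTA, at 33 and 18 bases. Of 30 members with a window, 5 held the E-box (*Hmx2*, *Neurod2*, *Nhlh2*, *Otp* and *Sim1*), a share of 16.7%, against 14.4% of all 32851 windows. TAATTA was in 1 of the 30, *Tbr1*, or 3.33%, against 4.84% of all windows. For both motifs a member counted if any of its windows matched, while the share of all windows counts each window, so the 2 measures are not alike. What did set the members' windows beside those of all genes was their base composition, with a median of 65.0% G and C and 15.5 CpG dinucleotides against 52.4% and 6 (for a member with several windows, the first listed). *Sim1* and *Tbr1* lay below that, with 45.6% and 45.2%, and *Otp* at 65.2%. A match to these letters is a description of the window, not a binding site. No window was listed for *Dlx5*, *Dlx6*, *Foxb1*, *Nr5a1*, *Onecut2*, *Onecut3*, *Rax* or *Tbx3*.

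The levels of the factors came first, as a map of the tissue. Apart from *Rax*, factors of every hypothalamic region on the list were found on at least 1 diet, most of them at low levels, and the most abundant factor by a wide margin was one of the thalamus. Per kb of transcript, 9 of 35 members lay above the median gene on each diet, where the median gene was at 6.48 CPM per kb on chow and 6.53 on the HFD. The hypothalamic factors had a median of 2.14 on chow and 2.41 on the HFD, on the same scale, over 21 and 20 genes. The 4 thalamic and habenular factors had a median of 11.0 and 8.14, and the 6 GABAergic and basal forebrain factors 6.17 and 6.36. With the median in place of the longest transcript length, the thalamic and habenular median on the HFD turned to 0.985 times the median gene, below it.

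*Tcf7l2* (ENSMUSG00000024985, chromosome 19, 55730252 to 55922086 on GRCm39), a partner of beta-catenin in Wnt signaling, was at 93.5 CPM per kb on chow and 73.4 on the HFD, above 96.6% and 95.2% of all genes. The next factor on chow, *Lef1*, from the same family, was at 12.7. As background, *Tcf7l2* is also made by cells of the oligodendrocyte lineage and *Lef1* by endothelial cells, so neither is a mark of thalamus alone. *Zic1*, a zinc finger factor of the medial habenula, dorsal thalamus and septum, was at 9.22 and 6.95. *Pou4f1* (Brn3a), which specifies habenular neurons, was the lowest of all members on chow, at 0.327, and again on the HFD, at 0.202.

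Among the hypothalamic factors, 3 lay above the median gene on both diets. *Nkx2-1* (chromosome 12, 56578743 to 56583693) was at 10.2 CPM per kb on each diet. *Isl1*, a LIM-homeodomain factor needed for arcuate neurons, was at 10.1 on chow and 11.2 on the HFD. *Six3*, which patterns the anterior forebrain including the suprachiasmatic region and is also on in striatal neurons, was at 9.49 and 8.38. At the other end, *Hmx2* (0.348, chow only), *Lmx1b* of the posterior hypothalamus (0.455 and 0.505), *Onecut3* (0.636 and 0.612) and *Hmx3* (0.791 and 0.818) were among the lowest 10% of genes per kb.

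Between these lay the factors of the single nuclei. *Sim1* was at 1.11 CPM per kb on chow and 1.01 on the HFD, while *Otp*, on in many of the same neurons, was at 3.38 and 3.21, and *Pou3f2* (Brn2), which acts after them in neuroendocrine neurons, at 4.74 and 4.54. Of the ventromedial pair, *Nr5a1* was at 1.91 and 2.04 and *Fezf1* at 4.43 and 5.25. *Tbx3*, needed for the identity of the POMC and AgRP neurons of the arcuate nucleus, was at 2.93 and 2.78, *Nhlh2* at 4.62 and 4.58, and *Bsx*, a factor of AgRP and NPY neurons, at 1.23 and 1.29. *Lhx1*, which the suprachiasmatic clock neurons need to stay coupled, was at 3.09 and 3.27, *Six6* at 1.13 and 1.17 and *Vax1* at 2.14 and 1.98. *Foxb1* of the mammillary body was at 1.89 and 1.97, *Onecut2* at 1.16 and 1.14, and *Lhx9*, a LIM-homeodomain factor of the lateral hypothalamus and of the thalamus, at 4.90 and 3.67.

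Of the telencephalic factors, those of cortical excitatory neurons were low or had no row. *Tbr1*, a T-box factor of deep-layer cortical neurons that is also on in parts of the amygdala, was at 2.76 CPM per kb on chow, above 29.6% of all genes, and above 31.2% of them on the HFD. *Neurod6* was at 0.747 and 0.818, and *Neurod2* at 0.399 on the HFD only. The GABAergic factors were more abundant: *Dlx1* was at 10.9 and 11.3, *Dlx2* at 5.96 and 6.38, *Dlx5* at 6.39 and 5.72, *Lhx6*, of interneurons and of GABAergic neurons in and next to the hypothalamus, at 7.52 and 7.03, and *Lhx8*, of basal forebrain cholinergic neurons, at 5.88 and 6.33. *Dlx6* was lower, at 3.15 and 2.83. *Meis2*, on in striatum and in several other regions, was at 8.86 and 7.21, and *Lhx2*, on in cortex, thalamus and tanycytes, at 4.45 and 3.08.

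**Figure D1:**
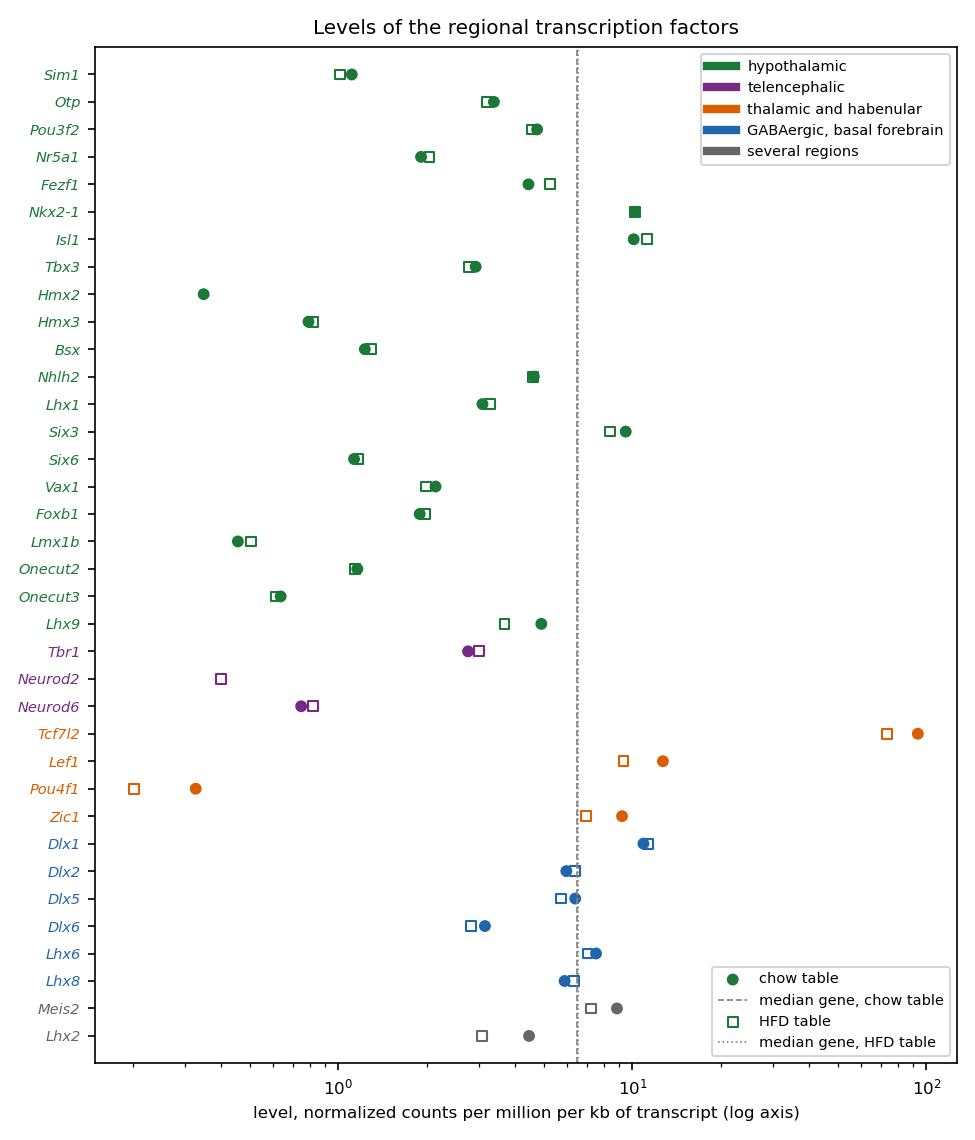
Level of each regional factor in normalized counts per kb (CPM per kb) of transcript (log axis), with the chow table as filled circles, the HFD table as open squares, colors for the region and vertical lines for the median gene of each table. *Tcf7l2* stands at 93.5 and 73.4 at the far right, and 9 of 35 members lie to the right of the median gene on each diet.

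Markers of the neighboring tissue were read beside these levels. All 5 thalamic markers had a row in each table, *Slc17a6* (also used throughout the hypothalamus) at 422 and 427 CPM and *Prkcd*, a kinase of thalamic relay neurons, at 206 and 138. All 4 habenular markers had a row, with summed group levels of 17.4 to 26.1 CPM. All 5 striatal markers had a row, with sums of 74.3 to 105, and all 8 cortical ones, with sums of 183 to 244. The hypothalamic peptides and enzymes summed to between 1037 and 1228. Bulk RNA cannot tell fewer cells of a type from less RNA per cell, and how much of the thalamic and striatal RNA came from outside the hypothalamus was not tested.

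The levels of the factors were then set side by side between the tables, which were normalized separately and hold different mice, so that diet and dissection cannot be told apart and no test was made. All 4 thalamic and habenular factors and 1 of 20 hypothalamic ones were lower past the fold in the HFD table. *Tcf7l2* was at 347 CPM on chow and 273 on the HFD, or 78.5% of the chow value (counting interval, 77.3% to 79.7%). *Lef1* was at 46.5 and 34.1 (73.3%), *Zic1* at 51.7 and 39.0 (75.4%), and *Pou4f1* at 1.45 and 0.897 (61.7%, counting interval 48.2% to 78.9%). *Lhx9*, at 24.2 and 18.1, was at 74.9%, and *Lhx2*, at 12.7 and 8.75, at 69.1%. These 6 of 34 members, or 17.6%, were lower past the fold in the HFD table, against 3.40% of all 16438 genes with a row in both, and 0 members were higher past the fold, against 1.73%.

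The other 19 hypothalamic factors with a row in both tables stood between 88.4% of the chow value, for *Six3*, and 118%, for *Fezf1*. *Isl1*, at 111%, was next to *Lmx1b*, also at 111%, *Nkx2-1* was at 99.3%, *Sim1* at 91.3% and *Otp* at 95.2%. The median over the hypothalamic factors was 99.2%, against 74.3% for the thalamic and habenular ones and 98.3% for the GABAergic and basal forebrain ones. The marker lists did not all match the factors of their region. Beside the 3.40% of all genes that were lower past the fold, 4 of 5 thalamic markers were, between 66.6% (*Gbx2*) and 74.9% (*Ramp3*) of the chow value, with *Slc17a6* at 101%. So were 3 of 4 habenular markers (median 72.3%), with *Chrna3* at 94.7% (86.5% to 104%). Of the striatal markers 3 of 5 were lower past the fold (median 74.6%), with *Drd2* at 86.7% and *Rgs9* at 88.8%, against 0 of the 6 GABAergic and basal forebrain factors. Of the cortical markers 2 of 8 were, *Slc17a7* at 65.3% and *Prox1* at 75.6% (median 90.3%), while *Tbr1* and *Neurod6* stood at 108% and 109%. Of the 19 hypothalamic peptides and enzymes, 0 were, with a median of 108%, and 1 was higher past the fold, *Pomc* at 149.7% (141% to 159%), against 1.73% of all genes. All 3 choroid plexus markers with a row in both tables were lower past the fold, *Ttr* at 1.57%, *Kl* at 39.1% and *Clic6* at 76.8%. Their median, 39.1%, was the lowest of the marker lists. These shares rest on means over the mice, which on chow exceeded the pooled levels by 1621% for *Ttr*, 72.5% for *Kl* and 5.88% for *Clic6*. The same excess was 55.9% for striatal *Adora2a*, 18.8% for *Drd1* and 18.1% for *Ppp1r1b*. By the pooled levels, HFD less chow was -0.63, 0.10 and -0.15 for *Ttr*, *Kl* and *Clic6* in WT mice, on the log2 scale. In *Gpr75*-/- mice it was -3.26, -0.99 and -0.42. The part of choroid plexus in the levels of the factors was not tested.

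Within the genotypes, *Tcf7l2* was at 8.38 log2 CPM in WT and 8.45 in *Gpr75*-/- mice on chow, and at 8.19 and 7.94 on the HFD. *Lef1* was at 5.54 and 5.50 on chow and 5.15 and 4.98 on the HFD. *Zic1* was at 5.68 in both genotypes on chow, and at 5.41 and 5.11 on the HFD. In these 3 factors, both HFD groups lay below both chow groups, and *Gpr75*-/- on the HFD was the lowest of the 4 groups. The genotypes did not go together in *Pou4f1*, which was at 1.17 CPM in WT mice on chow and 1.62 on the HFD. In *Gpr75*-/- mice *Pou4f1* was at 1.82 CPM on chow and at the 1 CPM floor on the HFD. In *Lhx9* the HFD level less the chow level was -0.11 in WT and -0.74 in *Gpr75*-/- mice, on the log2 scale. For the habenular markers *Gpr151*, *Chrnb4* and *Chrna3* it was 0.35, 0.38 and 0.22 in WT mice, and -1.17, -0.76 and -0.27 in *Gpr75*-/- mice. The remaining habenular marker, *Nwd2*, had values below 0 in both, -0.35 in WT and -0.56 in *Gpr75*-/- mice. For the striatal markers *Drd1*, *Drd2*, *Adora2a*, *Ppp1r1b* and *Rgs9* the same value was -0.33, -0.34, -0.80, -0.95 and -0.30 in WT mice. In *Gpr75*-/- mice it was 0.00, -0.07, -0.54, -0.21 and 0.04.

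**Figure D2:**
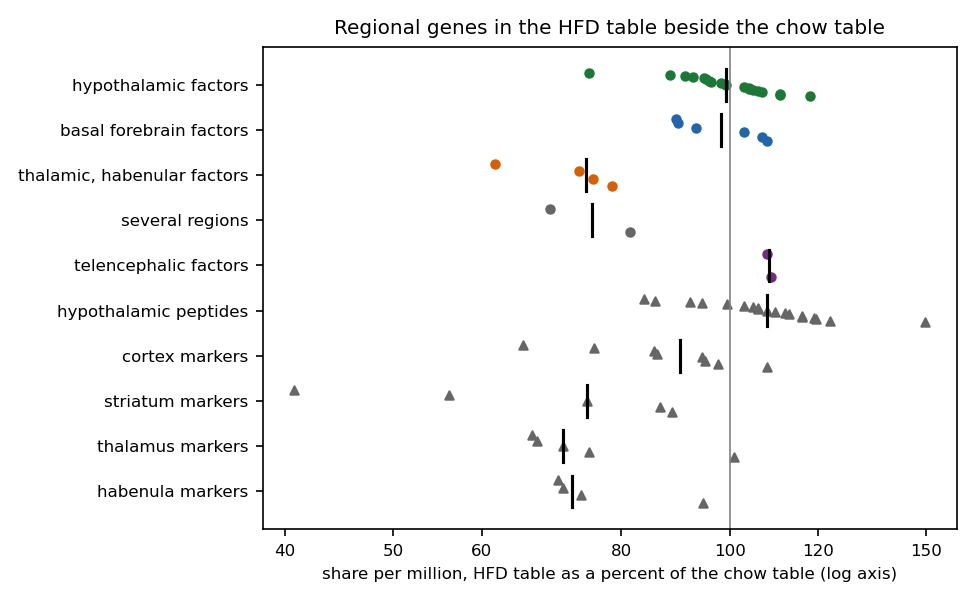
CPM in the HFD table as a percent of that in the chow table (log axis), 1 point per gene with circles for factors and triangles for markers, and a black bar at the median of each set. Thalamic and habenular factors sit at 61.7% to 78.5%, with medians of 74.3% for them and 99.2% for the hypothalamic factors.

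Between the genotypes on chow, *Dlx6*, *Meis2*, *Six3*, *Dlx5* and *Lhx8* were lower past the fold in *Gpr75*-/- mice, and *Pou4f1*, at a low level, was higher. Of the 6 GABAergic and basal forebrain factors, 3 were lower past the fold. Past the fold, 5 of 35 members (14.3%) were lower, against 3.54% of all genes, and 1 of 35 (2.86%) was higher, against 4.03%. *Dlx6* (chromosome 6, 6863334 to 6868568) was at 5.40 CPM in *Gpr75*-/- and 8.32 in WT mice, a log2 difference of -0.62 (counting interval, -0.86 to -0.38). Its neighbor *Dlx5*, 9237 bases away, was at 7.85 and 10.2, a difference of -0.37 (-0.58 to -0.16). The other *Dlx* pair did not follow, with *Dlx1* at 45.2 in both genotypes and *Dlx2* at 14.8 and 14.5.

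*Meis2* (chromosome 2, 115693545 to 115896320) was at 37.6 CPM in *Gpr75*-/- and 56.5 in WT mice on chow, which is 66.5% of the WT level and a log2 difference of -0.59 (-0.71 to -0.46). *Six3* was at 4.90 and 5.32 log2 CPM, a difference of -0.42 (-0.56 to -0.29), or 74.6% of the WT level. *Lhx8* was at 10.4 and 13.2, a difference of -0.35 (-0.54 to -0.16). All 5 of these were above 100 normalized counts on average. With the members and all genes restricted to such means, these 5 of 26 members (19.2%) were past the fold in either direction, against 2.26% of genes.

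The 5 members furthest above WT on chow held 1 past the fold, *Pou4f1*. *Pou4f1* was at 1.82 CPM in *Gpr75*-/- and 1.17 in WT mice, a log2 difference of 0.63 with a lower bound of 0.17, on a mean of 26.6 normalized counts. Levels this close to 1 CPM are compressed in the deposited group values. *Lhx9* followed with 0.27 (0.12 to 0.42), *Onecut3* with 0.25 (-0.09 to 0.58), *Six6* with 0.24 (-0.04 to 0.52) and *Fezf1* with 0.21 (0.02 to 0.41). As a group, the 21 hypothalamic factors had a median of 0.00, with 10 above 0, 4 at 0 and 7 below. *Nkx2-1* stood at -0.20 (-0.34 to -0.06), *Lhx1* stood at -0.22 (-0.41 to -0.03) and *Isl1* at -0.16 (-0.30 to -0.01). *Sim1* and *Otp* each stood at 0.06, with intervals that hold 0, and so did *Tcf7l2* at 0.07 and *Lef1* at -0.05.

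Striatal markers were read beside the factors that were lower on chow. Of the 5, 3 were lower past the fold in *Gpr75*-/- mice on chow, against 3.54% of all genes, with *Drd1* at -0.65, *Ppp1r1b* at -0.68 and *Adora2a* at -0.85 on the log2 scale. *Drd2* and *Rgs9*, each at -0.30, were not past it. Their summed level was 76.7 CPM in *Gpr75*-/- and 105 in WT mice on chow, and 74.3 and 75.9 on the HFD. The part of the striatal markers in the levels of *Meis2*, *Six3*, *Dlx5* and *Dlx6* was not tested.

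How even the mice of a group were can be read in part from the tables. The arithmetic mean over the mice exceeds the pooled group levels, which appear to average log values, the more the mice of 1 group differ. Among all genes at 2 or more CPM, this excess had a median of 0.857%, a 95th percentile of 2.40% and a 99th percentile of 4.28% on chow. Over the 31 members at that level the median was 1.24%, and the highest were *Vax1* at 6.33%, *Meis2* at 3.45% and *Lhx8* at 3.38%. All 3 were above the 95th percentile of all genes at that level. Counting error also adds to the excess at low counts, such as the mean of 40.8 for *Vax1*, and was not separated from it. Of the 5 striatal markers, 3 stood far above this on chow, *Adora2a* at 55.9%, *Drd1* at 18.8% and *Ppp1r1b* at 18.1%, while *Rgs9* was at 2.38% and *Drd2* at 0.240%. All 4 habenular markers were above the 99th percentile, *Chrnb4* at 33.2%, *Gpr151* at 21.7%, *Chrna3* at 9.26% and *Nwd2* at 7.83%. On the HFD the excess over the 31 members ran up to 2.33%, for *Lmx1b*.

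On the HFD, 5 of 20 hypothalamic factors were higher past the fold in *Gpr75*-/- mice, *Otp*, *Sim1*, *Nr5a1*, *Onecut3* and *Lmx1b*, and 1, *Lhx9*, was lower. Of the other regions, *Neurod2* and *Neurod6* were higher, and *Lhx6* and *Lhx8* (2 of 6 GABAergic and basal forebrain factors), *Tbr1* and *Pou4f1* were lower. Past the fold, 7 of 35 members (20.0%) were higher, against 2.95% of all genes, and 5 of 35 (14.3%) were lower, against 2.50%. *Otp* (chromosome 13, 95012110 to 95021638) was at 9.76 CPM in *Gpr75*-/- and 7.28 in WT mice, a log2 difference of 0.42 (0.21 to 0.63). *Sim1* (chromosome 10, 50770850 to 50865248) was at 8.32 and 6.41, a difference of 0.38 (0.15 to 0.60). In both, the WT group on the HFD was the lowest of the 4 groups, since on chow the levels were 9.00 and 8.65 for *Otp*, and 8.16 and 7.85 for *Sim1*, in *Gpr75*-/- and WT mice. *Pou3f2*, on in the same neurons and in many others, was at 26.6 and 23.9, a difference of 0.16 (0.01 to 0.30).

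*Nr5a1* (chromosome 2, 38582668 to 38604554) was at 6.77 CPM in *Gpr75*-/- and 5.40 in WT mice on the HFD, a log2 difference of 0.32 (0.09 to 0.56) that sits at the threshold. *Fezf1*, upstream of it in the ventromedial nucleus, was at 13.2 and 11.8, a difference of 0.16 (-0.02 to 0.34). *Onecut3* was at 3.32 and 2.49, a difference of 0.42 (0.09 to 0.75), while *Onecut2* was at 18.4 in both genotypes. *Lmx1b*, at 2.63 and 2.10, also sat at the threshold, with 0.32 (-0.03 to 0.68). Of the 20 hypothalamic factors, 14 were above 0, 3 at 0 and 3 below, with a median of 0.11 against 0.00 for all genes. The 3 at 0 were *Nkx2-1*, *Nhlh2* and *Onecut2*, and the 3 below were *Lhx9*, *Hmx3* at -0.20 (-0.69 to 0.29) and *Six3* at -0.08 (-0.22 to 0.05).

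The other hypothalamic factors lay above 0 on the HFD with differences of 0.07 to 0.17, none past the fold. *Tbx3* stood at 0.17 (-0.01 to 0.34), *Six6* at 0.16 (-0.11 to 0.42), *Isl1* at 0.12 (-0.02 to 0.26), *Lhx1* and *Foxb1* each at 0.10, *Bsx* at 0.08 and *Vax1* at 0.07. Of the 19 genes for hypothalamic peptides and enzymes read beside them, 8 were higher past the fold in *Gpr75*-/- mice on the HFD, against 2.95% of all genes, and the other 11 were not past it. The median of the 19 was 0.25, with 17 above 0 and 2 below, *Th* at -0.08 and *Gnrh1* at -0.02. On chow 1 was higher past the fold, against 4.03% of all genes, and 1 lower, against 3.54%, with a median of 0.04. *Oxt*, made by neurons that need *Sim1* and *Otp*, was at 144 CPM in *Gpr75*-/- and 119 in WT mice on the HFD, a log2 difference of 0.28 (0.18 to 0.38), and there *Avp* stood at 0.05 (-0.05 to 0.16) and *Trh* at 0.25 (0.14 to 0.36).

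Of the 4 thalamic and habenular factors, 1, *Pou4f1*, was lower past the fold in *Gpr75*-/- mice on the HFD, against 2.50% of all genes. The other 3 had values below 0 that did not pass it, and on chow 2 of the 4 were above 0, 1 at 0 and 1 below. *Tcf7l2* was at 245 CPM in *Gpr75*-/- and 292 in WT mice, a log2 difference of -0.25 (-0.35 to -0.16). *Zic1* was at 34.4 and 42.5, a difference of -0.30 (-0.43 to -0.18), and *Lef1* at 31.5 and 35.4, a difference of -0.17 (-0.30 to -0.04). *Pou4f1* is at the 1 CPM floor in *Gpr75*-/- mice on the HFD and at 1.62 CPM in WT mice, on a mean of 17.4 normalized counts. It counts as lower past the fold, but no fold is given. Of 4 oligodendrocyte markers, 2 were lower past the fold beside *Tcf7l2* on the HFD, with a median of -0.32, and 0 were on chow, where 3.54% of all genes were, with a median of -0.17, and their part in the level of *Tcf7l2* was not tested. *Zic4*, which overlaps *Zic1* in the deposited coordinates, stood at -0.34.

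Markers of the same regions were read beside these factors. Of the 5 thalamic markers, 2 were lower past the fold on the HFD. The values ran from *Gbx2* at -0.39 (-0.59 to -0.20) and *Prkcd* at -0.34 (-0.44 to -0.23) to *Slc17a6* at -0.07 (-0.16 to 0.03). Their summed level was 571 CPM in *Gpr75*-/- and 629 in WT mice, against 692 and 657 on chow. Most of each sum was *Slc17a6*, which is also used throughout the hypothalamus, at 419.8 and 439.9 CPM on the HFD, and 439.9 and 401 on chow. All 4 habenular markers were lower past the fold, against 2.50% of all genes, with *Gpr151*, an orphan receptor of habenular neurons, at -1.12 (-1.47 to -0.78). Their sum was 17.4 against 25.7, and 25.6 against 26.1 on chow. On chow 2 of the 4 were higher past the fold, against 4.03% of all genes. *Gpr151* stood there at 0.39 (0.09 to 0.70), *Chrnb4* at 0.38 (-0.06 to 0.81), *Chrna3* at 0.03 and *Nwd2* at -0.23. The mean over the mice exceeded the pooled levels by 11.3% for *Gpr151* and 5.27% for *Chrnb4* on the HFD. There the 99th percentile of genes at 2 or more CPM was 3.99%, a set that leaves out *Chrnb4* at 1.55 CPM. Of the 8 cortical markers 4 were below WT, with a median of 0.01 over the list, and only *Slc17a7*, the vesicular glutamate transporter of cortex and some thalamic neurons, was past the fold, at -0.46 (-0.61 to -0.32). The part of these markers in the levels of the factors was not tested.

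Of the other factors lower on the HFD, *Lhx6* (chromosome 2, 35971965 to 35995420) was at 27.4 CPM in WT mice and at 76.5% of that in *Gpr75*-/- mice, a log2 difference of -0.39 (-0.53 to -0.24), and stood at -0.16 (-0.30 to -0.01) on chow. *Tbr1* was at 10.2 and 13.2, a difference of -0.38 (-0.56 to -0.19), and at 11.6 and 10.2 on chow, where the difference was 0.18 (-0.01 to 0.38). *Lhx9* was at 15.5 and 19.9, a difference of -0.36 (-0.52 to -0.19), and so lay on opposite sides of 0 on the 2 diets. *Lhx8* (chromosome 3, 154011931 to 154036296) was at 11.3 and 14.5, a difference of -0.36 (-0.54 to -0.18), and was the one member lower past the fold on both diets. On the HFD, 3 of 5 striatal markers were below WT, with *Adora2a* at -0.59 (-1.03 to -0.14), past the fold, and *Drd1* at -0.31 (-0.50 to -0.12), while the summed levels were 74.3 CPM in *Gpr75*-/- and 75.9 in WT mice, and their part in the level of *Lhx8* was not tested.

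Of the 5 factors lower past the fold on chow, all but *Lhx8* were not past it on the HFD. The same share over all genes is not given here, so this is not read as particular to these factors. *Dlx6* stood at -0.03 (-0.26 to 0.21), *Dlx5* at -0.08 (-0.30 to 0.13), *Six3* at -0.08 and *Meis2* at -0.13 (-0.26 to 0.00). In *Meis2* and *Six3* the *Gpr75*-/- groups of the 2 diets had the same pooled level, 5.23 log2 CPM for *Meis2* and 4.90 for *Six3*. The WT groups were at 5.82 on chow and 5.36 on the HFD for *Meis2*, and at 5.32 and 4.98 for *Six3*. *Dlx1* stood at -0.05, *Dlx2* at 0.17 (0.01 to 0.34) and *Lhx2* at -0.20 (-0.41 to 0.01), against -0.23 (-0.41 to -0.04) on chow. Whether the difference between genotypes itself differed between the diets was not tested for any factor.

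The members with the largest values on the HFD were at the lower end of detection. *Neurod6* was at 2.16 CPM in *Gpr75*-/- and 1.32 in WT mice, a log2 difference of 0.71 (0.29 to 1.13), on a mean of 34.1 normalized counts, and stood at -0.18 (-0.63 to 0.26) on chow. *Neurod2* is at the 1 CPM floor in WT mice and at 1.62 CPM in *Gpr75*-/- mice, on a mean of 24.3, so no fold is given. *Neurod2* is also made by granule neurons of the cerebellum, and 3 cerebellar markers, *Cbln3*, *Gabra6* and *Pcp2*, were listed at 0 in WT mice on the HFD and at 2.51, 2.28 and 1.20 CPM in *Gpr75*-/- mice. None of the 3 had a row on chow. The mean of *Cbln3* over the mice exceeded its pooled levels by 68.0%, and the part of cerebellar RNA in *Neurod2* and *Neurod6* was not tested. With means of at least 100 normalized counts, 7 of 26 members (26.9%) were past the fold in either direction on the HFD, against 1.43% of genes. They were *Otp*, *Sim1* and *Nr5a1*, which were higher, and *Lhx6*, *Tbr1*, *Lhx9* and *Lhx8*, which were lower.

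**Figure D3:**
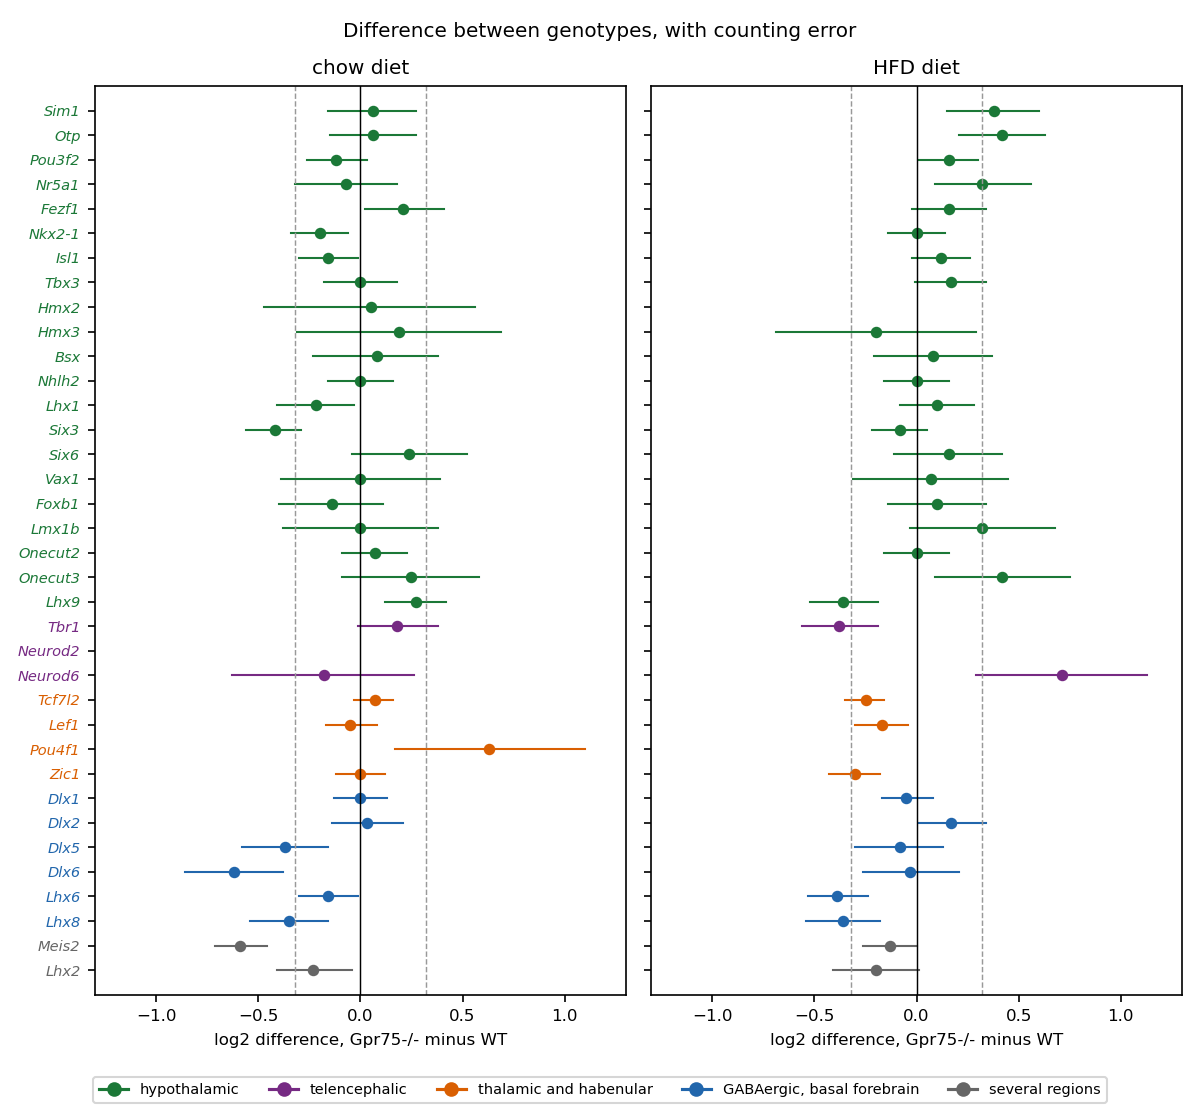
Log2 difference between *Gpr75*-/- and WT mice for each factor on each diet, with bars for the 95% interval of counting error and rounding and dashed lines at 25%. *Dlx6* (-0.62) and *Meis2* (-0.59) stand to the left on chow, and *Sim1* (0.38) and *Otp* (0.42) to the right on the HFD. *Neurod2* and *Pou4f1*, at the 1 CPM floor in 1 group, are left out on the HFD.

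**Figure D4:**
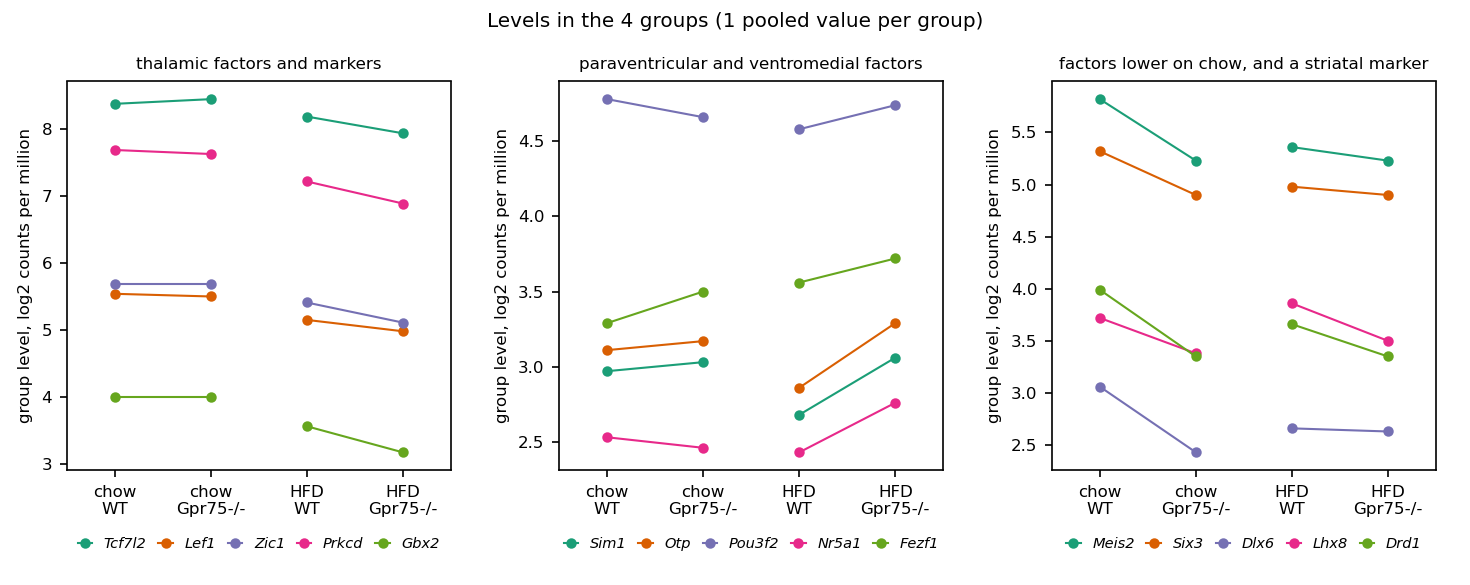
Pooled level of each gene in the 4 groups, in log2 CPM, with lines joining the genotypes of 1 diet and no error bars, since each group has 1 value. *Tcf7l2* is at 8.38, 8.45, 8.19 and 7.94 from left to right, *Otp* at 3.11, 3.17, 2.86 and 3.29, and *Meis2* at 5.82, 5.23, 5.36 and 5.23.

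Some members share their place in the genome with other genes. On each diet, 10 members overlap another listed gene in the deposited coordinates. Whether the counting used the strand is not given in the sources used here, so reads of a gene and of a partner on the other strand cannot be told apart. *Dlx6os1*, which overlaps *Dlx6*, stood at -0.40 on chow beside *Dlx6* at -0.62, and at -0.34 on the HFD beside *Dlx6* at -0.03. *Six3os1*, which overlaps *Six3*, stood at 0.00 on chow, beside *Six3* at -0.42, and at 0.10 on the HFD. *Tbx3os1* stood at -0.32 and -0.26, *Dlx1as* at 0.00 and 0.07, and *Fgfr2*, which spans *Hmx2* and *Hmx3*, at -0.20 and -0.05.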

How the data were processed

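Total RNA of the hypothalamus of 12 mice was made into libraries with a SMART-Seq mRNA kit and read on a NovaSeq. The authors ran the Astrocyte platform and compared raw counts within each diet with DESeq2. The authors' processing notes name STAR, featureCounts, StringTie, DESeq2 and the build GRCm39, with no versions. The signal that the authors deposited per gene is the mean over 6 mice of counts divided by size factors. The deposited group values have no stated unit. They were decoded as log2 of 1 plus log2 CPM (counts per 1000000), with 2 decimals and with mice under 1 CPM apparently at 0. For genes at 2 or more CPM, 99.4% (chow) and 99.5% (HFD) of decoded levels, averaged over the genotypes, lay within 0.1 on the log2 scale of the level from the deposited mean. The authors' own fold changes, standard errors, test statistics and p-values were not used.

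A test on counts of single mice, chosen as the main design, could not be used on pooled values, so differences carry no test. The 95% intervals take 3 mice per group at the mean depth of a diet. Transcript lengths came from GENCODE M21, matched by Ensembl identifier for 99.8% of genes, and its coordinates were left unused. The steps used Python 3.11.15, numpy 2.4.6, pandas 2.3.3 and matplotlib 3.10.9 and were tested on simulated data. The members, marker lists and tests were chosen with earlier results of these data known. Every member was to be named, with the 5 largest and 5 smallest differences per diet given in full, and other genes only from 10 marker lists. Some genes of these lists are not reported here and were left out of their counts and sums. *Gpr75*, the genes that overlap members and the factors of midbrain and hindbrain were added after values were seen. Alternatives were folds of 10% and 50%, centring, means of at least 10 or 100 normalized counts, and other length scales.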

Additional observations from a re-analysis of the deposited data

How the results depend on the processing

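No paired analysis was possible because the tables hold 1 pooled value per genotype, and leaving out single mice was not run for the same reason. Of 58 alternative values of 18 summary results, 43 stayed within the set margin, which was 1.5 times for counts and ratios and 0.05 for log2 medians. The direction turned in 1. On chow, members higher past the fold numbered 7 with a fold of 10% and 0 with means of at least 100, against 1, and members lower numbered 12 with a fold of 10% and 2 with 50%, against 5. On the HFD, members higher numbered 12 with 10%, 2 with 50% and 3 with means of at least 100, against 7, and members lower 10 with 10% and 1 with 50%, against 5. Relative to the median gene, the mean in place of the median put hypothalamic factors on chow at 0.519 against 0.330, and thalamic and habenular factors at 4.46 against 1.69 on chow and 3.44 on the HFD. With the median in place of the longest transcript length, the median of these 4 factors on the HFD turned from above the median gene to 0.985 times it, and thalamic markers stood at 1.51 against 2.89 on chow and 1.11 against 2.15 on the HFD. Depth limits most the members under 100 normalized counts, 9 of 35 on each diet, and pooled levels near 1 CPM are compressed. The variation between mice was not measured here.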

Other observations

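Factors that mark the brain behind the forebrain were looked up as well, with a list chosen after the tables had been seen. Of 8 hindbrain factors (*Phox2a* and 7 *Hox* genes), which set the identity of hindbrain segments and of visceral motor neurons, 0 had a row on either diet. Of 7 midbrain factors, *En2* had a row on both diets and *En1* on the HFD, while *Pax5*, *Pax7*, *Pitx3*, *Foxa2* and *Gata3* had none. *En2*, also a factor of cerebellum, was at 1.54 CPM in *Gpr75*-/- and 1.94 in WT mice on chow, and at 2.26 and 1.81 on the HFD. *En1* was at 0.981 CPM on the HFD. The smallest mean of a listed gene was 5.51 normalized counts on chow and 6.37 on the HFD.

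Choroid plexus and oligodendrocyte genes were read in the pooled groups as well. *Ttr*, the transthyretin that choroid plexus secretes, was at 12.9 CPM in *Gpr75*-/- and 5.59 in WT mice on chow by the pooled levels, while its mean over the 6 mice was 159, so that at least 1 mouse stood far above the others. On the HFD *Ttr* was at 1.35 and 3.60. All 5 choroid plexus markers were higher past the fold in *Gpr75*-/- mice on chow, against 4.03% of all genes, *Kcnj13* among them with WT at the 1 CPM floor. The mean over the mice exceeded the pooled levels by 72.5% for *Kl*, 54.7% for *Folr1*, 28.2% for *Kcnj13* and 5.88% for *Clic6*. The 99th percentile of all genes at 2 or more CPM was 4.28%. Of 4 oligodendrocyte genes, 0 were lower past the fold in *Gpr75*-/- mice on chow, against 3.54% of all genes, and 2 were on the HFD, against 2.50%, *Mog*, a protein of the outer myelin surface, at -0.32 and *Cldn11* at -0.33. *Mal*, also at -0.32, fell just short of the threshold that *Mog* just passed, with rounding errors of 0.06 and 0.05, so the 2 cannot be told apart. *Mbp*, at -0.18, was not past it on the HFD.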
